A study of Mus musculus with 6 samples.

Results

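The 10 genes described here move, bind or sense calcium and magnesium in the kidney tubule, and they were followed in cells sorted from the kidneys of Trf1flox/flox and Trf1+/+ mice. They were chosen by name for what their products are known to do, and earlier results of these data were known at that time. The genes are *Calb1*, *S100g* and *Pvalb* (calcium-binding proteins), *Slc8a1* and *Atp2b1* (calcium extrusion), *Trpm6*, *Trpm7* and *Cnnm2* (magnesium), *Casr* (sensing) and *Trpv5* (calcium entry). Of these 10 genes, 9 have a row among the 12125 genes of the deposited table. *Trpv5* has none and was not analysed here. All 9 passed the filter on low values, which asked for a normalized count of 10 or more in 3 or more of the 6 libraries and left 9966 genes.

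RNA-seq libraries were made from 500 sorted cells each, from 3 Trf1+/+ and 3 Trf1flox/flox mice, to compare cells with and without deletion of Trf1 (symbol *Terf1*), a protein that protects telomeres. Mice of both genotypes carried Col1a2-CreERT2, in which the *Col1a2* promoter drives a Cre recombinase that tamoxifen activates, and a KFP allele that Cre switches on. Male and female mice started tamoxifen injections at 6 to 8 weeks of age and received them 3 times a week for 8 weeks, in both groups. Cells were sorted with antibodies to CD29, a surface integrin, and to KFP, and the labels call them fibroblasts. Replicates are numbered here from 1 to 3 within each group, and the numbers pair no mice.

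In the distal nephron, calcium enters the tubule cell through the apical channel TRPV5, is carried across the cell by calbindins, and leaves at the basolateral side through the sodium-calcium exchanger NCX1 (*Slc8a1*) and the calcium pump PMCA1 (*Atp2b1*). Magnesium enters the distal convoluted tubule through TRPM6, a close relative of the widely expressed channel kinase TRPM7, and CNNM2 lies in the basolateral membrane of the same cells. CASR, the calcium-sensing receptor, is known in the thick ascending limb, where it lowers calcium and magnesium reabsorption. Most of these genes are best known from tubule epithelium, while TRPM7 and PMCA1 are found in many cell types.

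The libraries held markers of tubule cells at high levels and those of fibroblasts at low levels or not at all. Of 8 fibroblast markers, *Col1a2* and *Dcn* have a row. *Col1a2*, whose promoter drives the Cre, stood at 0 to 1.78 normalized counts in a library. The summed fibroblast markers ranged from 1.66 to 94.6 normalized counts in Trf1+/+ and from 2.58 to 98.4 in Trf1flox/flox libraries. The 5 markers of the distal convoluted tubule, all listed and none at 0, summed to between 57453 and 89810 in Trf1+/+ libraries. They summed to between 43491 and 54181 in Trf1flox/flox libraries, and the groups did not overlap. Among single tested genes, 8.68% had groups apart in either direction, and no such share was computed for sums. The 4 markers of the thick ascending limb summed to between 41183 and 69745 against 29624 to 117539, and the 7 of the proximal tubule to between 5899 and 32045 against 11732 to 37667, with overlapping groups. The connecting tubule and principal cell list, with 6 of 7 genes listed, summed to between 281 and 2182 against 209 to 19338. The 4 intercalated cell markers, all listed, summed to between 188 and 8480 over the libraries. The macrophage list, with 3 of 6 genes listed, summed to between 0 and 2513, and the groups of both lists overlapped. No marker of smooth muscle (3 genes) or podocytes (4 genes) has a row, 1 of 6 endothelial markers does, and red blood cell markers ranged from 121 to 52110. For these reasons the cells are called sorted kidney cells here. *Terf1*, the targeted gene, was at 0.891, 253 and 235 normalized counts under the labels Trf1+/+ replicates 1, 2 and 3, and at 110.0, 7.65 and 12.4 under the labels Trf1flox/flox replicates 1, 2 and 3. The 0.891 is 1 read, which goes against the label of that library. The 110.0 in Trf1flox/flox replicate 1 is 128 reads, against 7 and 18 reads in replicates 2 and 3 of that group. It lies between these and the 305 and 238 reads of Trf1+/+ replicates 2 and 3, so that library fits its label less clearly. All groups are used as labelled. The libraries held between 10263382 and 12248797 reads on the listed genes, and 1 read was worth 0.689 to 1.09 normalized counts. Genes above 0 numbered 8967 in the library labelled Trf1+/+ replicate 1, 9733 in Trf1flox/flox replicate 2 and 10937 to 11593 in the other 4.

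**Figure D1:**
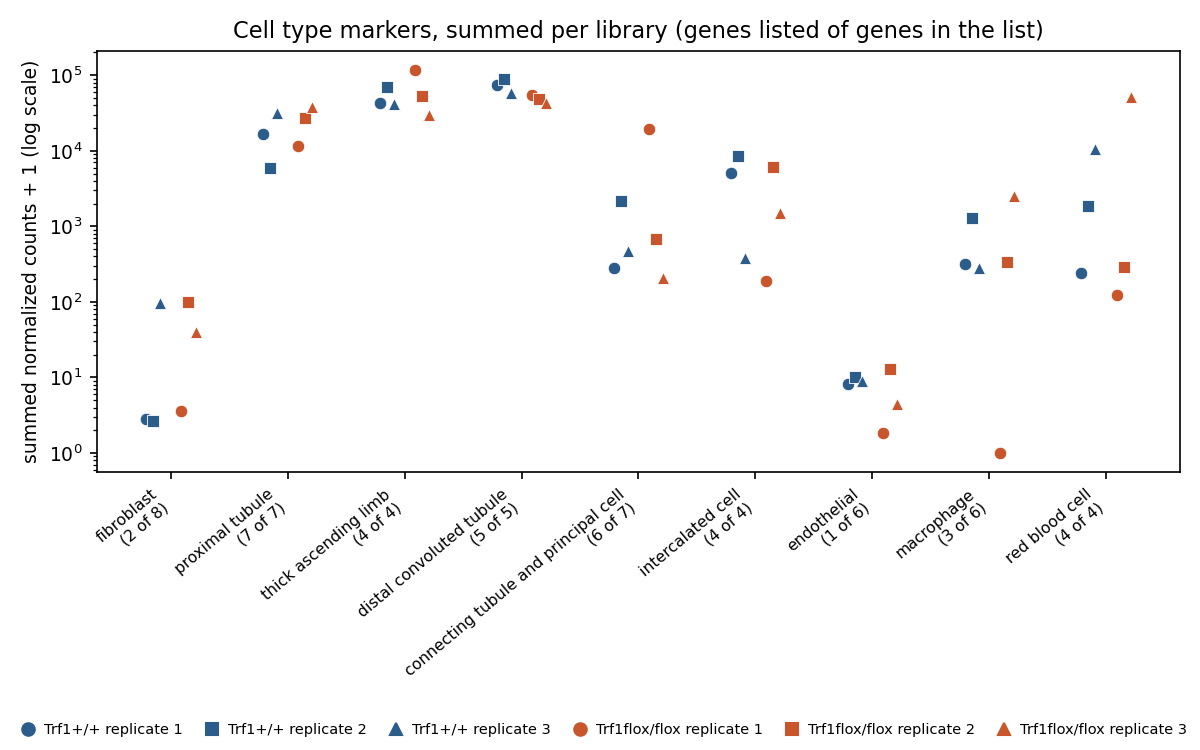
Summed normalized counts of cell type markers plus 1 on a log axis, with 1 point for each library; blue points are Trf1+/+ and orange points Trf1flox/flox libraries, and the brackets give how many genes of each list have a row. The summed markers of the proximal tubule, thick ascending limb and distal convoluted tubule lie above those of fibroblasts in all 6 libraries. Of the lists shown, only that of the distal convoluted tubule has groups that do not overlap. Among single tested genes, 8.68% have groups apart in either direction.

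None of the 9 genes passed an adjusted p of 0.05 between the genotypes. The limma test over all 9966 genes called none of them either (0.0%), with 454 (4.56%) at an unadjusted p under 0.05, and none of the 9 was among these. Over all genes edgeR called 0 and DESeq2 58 at an adjusted p under 0.05, and of the 9 genes edgeR put 0 and DESeq2 put 1, *Calb1*, under an unadjusted p of 0.05. Over all tested genes edgeR put 196 (1.97%) and DESeq2 410 (4.11%) under that unadjusted p. *Calb1* had groups that did not overlap, lower in Trf1flox/flox mice, and was alone among the 9 in this. Over all tested genes 332 (3.33%) were lower without overlap and 865 (8.68%) were apart in either direction, so 1 of 9 is close to the background. Of the 9 genes, 8 had a log2 fold change below 0 and *Casr* had one above 0. The 8 include *Trpm7* at -8.46e-05, *Atp2b1* at -0.02 and *S100g* at -0.15, each close to 0 beside its standard error. Over all tested genes 5571 (55.9%) were above 0. The median log2 fold change of the 9 genes was -0.84, beside 0.20 over all tested genes. That median was 0.14 without Trf1flox/flox replicate 2 and 0.32 without Trf1+/+ replicate 2. The number of the 9 genes above 0 was 0, 5 and 2 without Trf1+/+ replicates 1, 2 and 3, and 6 and 3 without Trf1flox/flox replicates 2 and 3.

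**Figure D2:**
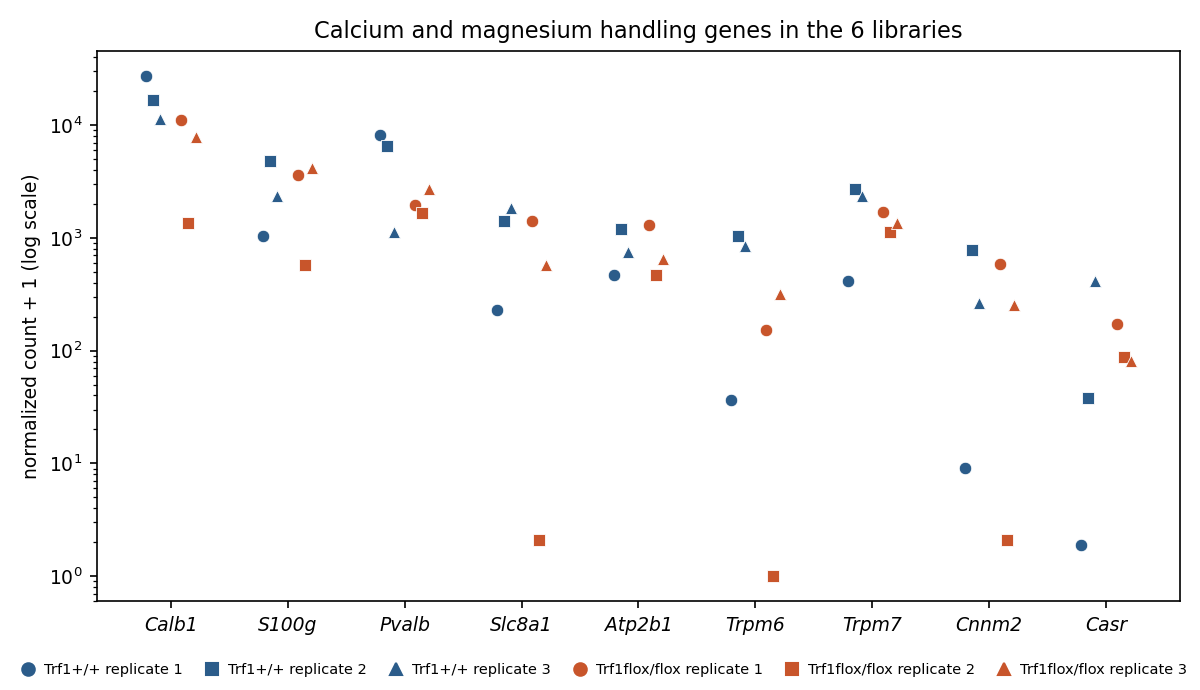
Normalized count plus 1 of the 9 genes on a log axis, with 1 point for each library; blue points are Trf1+/+ and orange points Trf1flox/flox libraries, and the symbol gives the replicate. The groups overlap for every gene but *Calb1*, and the orange square, Trf1flox/flox replicate 2, is the lowest point for 5 of the 9 genes.

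*Calb1* encodes calbindin-D28k, which buffers calcium and carries it through the cells of the distal convoluted and connecting tubule. The gene lies on chromosome 4 (15881264 to 15908064, plus strand on GRCm38, as are all coordinates of genes here). *Calb1* had 27371, 16530 and 11368 normalized counts in Trf1+/+ replicates 1, 2 and 3, and 11124, 1341 and 7907 in Trf1flox/flox replicates 1, 2 and 3. Every Trf1flox/flox library lay below every Trf1+/+ library, but the lowest Trf1+/+ value exceeded the highest Trf1flox/flox value by 244 normalized counts, or 2.19%. Trf1+/+ mice averaged 18423 ± 8168 and Trf1flox/flox mice 6791 ± 4986 (SD, n = 3 each), a mean 2.71-fold higher in Trf1+/+ mice. On the log2(normalized count + 1) scale, used for all log2 fold changes of limma here, the difference was -1.82 with a standard error of 1.09 and a 95% interval from -4.46 to 0.83 (unadjusted p = 0.145, adjusted p = 0.996 from limma). With a prior variance that follows the mean level, an option of limma added after the data were seen, the standard error was 0.69 and the unadjusted p was 0.0219, with an adjusted p of 0.970, and 312 of all tested genes (3.13%) then passed an unadjusted p of 0.05. DESeq2 gave an unadjusted p of 0.0402 and edgeR 0.0741 for *Calb1*, both with an adjusted p close to 1. An exact permutation test of 3 libraries against 3 cannot go below a p of 0.1.

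The groups of *Calb1* stayed apart after the libraries were scaled to the same upper quartile. Leaving out a library cannot make groups that are apart overlap, so those settings cannot test this. *Calb1* differed by -1.48 on the log2 scale without the library labelled Trf1+/+ replicate 1 and -0.88 without Trf1flox/flox replicate 2, which held the lowest value. It was -0.55 without both. Of the 5 markers of the distal convoluted tubule, 3 were lower without overlap as *Calb1* was, beside 3.33% of all tested genes. *Slc12a3*, the thiazide-sensitive sodium chloride cotransporter, had 26373, 35066 and 25899 normalized counts for Trf1+/+ libraries, against 17956, 14271 and 18752 in the Trf1flox/flox libraries. *Klhl3* and *Tmem52b* were the other two, while the groups of *Egf* and *Wnk4* overlapped. After upper quartile scaling, the groups of *Slc12a3* and *Klhl3* overlapped and those of *Tmem52b* did not. The ratio of *Calb1* to *Slc12a3* within a library was 1.04, 0.471 and 0.439 in Trf1+/+ and 0.620, 0.0940 and 0.422 in Trf1flox/flox libraries, so the groups of this ratio overlapped. In RNA of pooled cells, fewer cells of a type and less RNA per cell cannot be told apart, and what part the distal convoluted tubule markers have in the lower *Calb1* was not tested.

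*S100g* encodes calbindin-D9k, the small calcium-binding protein that accompanies calbindin-D28k in the mouse distal nephron and that vitamin D is known to induce (chromosome X, 162961992 to 162964599, minus strand). *S100g* had 1037, 4838 and 2367 normalized counts in Trf1+/+ libraries and 3608, 575 and 4194 in Trf1flox/flox libraries. The means were nearly equal, at 2747 ± 1929 and 2792 ± 1943 (SD, n = 3 each), and the groups overlapped over most of their range. Its log2 fold change was -0.15 (SE 1.15, 95% interval -2.96 to 2.66), and its direction turned under upper quartile scaling and in both count models.

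*Pvalb* encodes parvalbumin, a calcium-binding protein of the early distal convoluted tubule in the kidney (chromosome 15, 78191114 to 78206400, minus strand). *Pvalb* had 8159, 6466 and 1133 normalized counts in Trf1+/+ libraries and 1950, 1651 and 2722 in Trf1flox/flox libraries. Replicates 1 and 2 of Trf1+/+ lay above all Trf1flox/flox libraries and replicate 3 lay below them all, so the groups overlapped. Between the groups *Pvalb* differed by a log2 fold change of -0.92 (SE 1.03, 95% interval -3.43 to 1.59; unadjusted p = 0.405 from limma, 0.0595 from DESeq2). It was -0.39, -0.56 and -1.82 without Trf1+/+ replicates 1, 2 and 3, and -0.23 without both Trf1+/+ replicate 1 and Trf1flox/flox replicate 2. Without Trf1+/+ replicate 3 the groups of *Calb1*, *Pvalb* and *Casr* were apart, in a setting where 2286 of 8980 tested genes (25.5%) were. *Calb1* and *Pvalb* were then lower in Trf1flox/flox, and *Casr* was higher, with a log2 fold change of 3.66.

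The ratio of *Calb1* to *S100g* within each library, which does not depend on how the libraries were scaled, was 26.4, 3.42 and 4.80 in Trf1+/+ and 3.08, 2.33 and 1.89 in Trf1flox/flox libraries. This ratio was singled out after its values were seen, and its groups did not overlap, by a narrow margin between 3.42 and 3.08. Ratios between all members were counted with 1 added to each normalized count, so that these counts can depend on the scaling. Of these 36 ratios, 3 had groups apart (*Calb1* to *S100g*, *Calb1* to *Atp2b1* and *Trpm6* to *Cnnm2*). In Trf1flox/flox replicate 2, *Trpm6* had 0 reads and *Cnnm2* had 1. Among all pairs of tested genes, counted in the same way, 9.41% had groups apart, beside 8.33% of those between members.

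**Figure D3:**
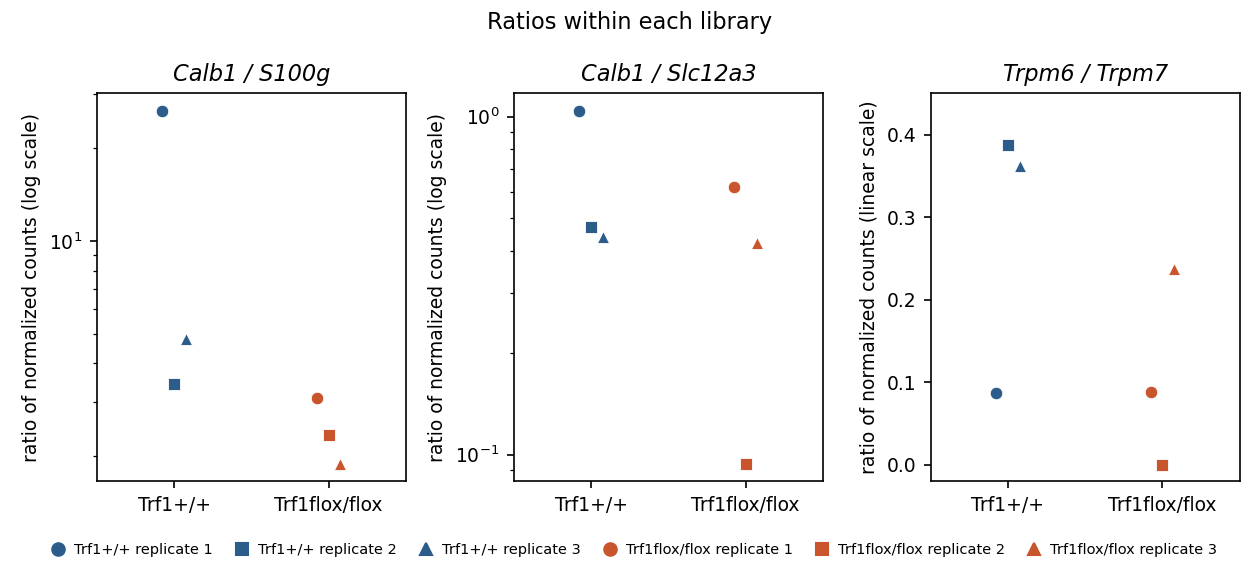
Ratios of normalized counts within each library, with 1 point for each library (blue Trf1+/+, orange Trf1flox/flox); the left and middle axes are logarithmic and the right axis is linear. The groups of *Calb1* to *S100g* do not overlap, with 3.42 as the lowest Trf1+/+ and 3.08 as the highest Trf1flox/flox ratio, whereas those of *Calb1* to *Slc12a3* and of *Trpm6* to *Trpm7* overlap.

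*Slc8a1*, the exchanger that trades calcium for sodium at the basolateral membrane, spans chromosome 17 from 81373105 to 81738377 on the minus strand. It had 230, 1396 and 1828 normalized counts in Trf1+/+ libraries and 1413, 1.09 and 574 in Trf1flox/flox libraries, where 1.09 stands for 1 read. The other 5 libraries lay between 230 and 1828, with the groups intermixed. Its log2 fold change of -2.81 (SE 2.59, 95% interval -9.13 to 3.50) rested on that library, and was 0.10 without it. Of the exonic length of *Slc8a1*, 1.57% overlaps an unlisted gene on the opposite strand, and the libraries keep no strand.

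*Atp2b1*, the calcium pump of the plasma membrane, lies on chromosome 10 (98914406 to 99026143, plus strand). It had 465, 1201 and 749 normalized counts in Trf1+/+ libraries and 1294, 472 and 655 in Trf1flox/flox libraries. Each group had a single high library, at 1201 and 1294, and the means were 805 ± 371 and 807 ± 432 (SD, n = 3 each). The log2 fold change of *Atp2b1* was -0.02, with a standard error of 0.85 and a 95% interval from -2.10 to 2.06, so that a change of up to about 2 log2 units in either direction lies within the interval.

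*Trpm6*, the magnesium channel of the distal convoluted tubule (chromosome 19, 18749983 to 18892511, plus strand), had 35.6, 1047 and 846 normalized counts in Trf1+/+ libraries. It had 150, 0 and 320 in Trf1flox/flox libraries, where a count of 0 allows up to 3 reads, or 3.28 normalized counts, by counting error alone. The library labelled Trf1+/+ replicate 1 lay below the Trf1flox/flox replicates 1 and 3, and the other Trf1+/+ libraries lay above them. For *Trpm6* limma gave a log2 fold change of -3.13 (SE 2.56, 95% interval -9.37 to 3.11; unadjusted p = 0.267 from limma). It was -0.53 without Trf1flox/flox replicate 2, and -4.69 without Trf1+/+ replicate 1, when the groups of *Trpm6* no longer overlapped.

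*Trpm7*, the channel kinase that most cells express (chromosome 2, 126791565 to 126876230, minus strand), had 411, 2700 and 2337 normalized counts for Trf1+/+ libraries, against 1705, 1130 and 1347 in the Trf1flox/flox libraries. The Trf1flox/flox libraries all lay between the lowest and the middle Trf1+/+ value. The mean was lower in Trf1flox/flox mice, at 1394 ± 290 against 1816 ± 1231 (SD, n = 3 each), whereas the log2 fold change was -8.46e-05 (SE 1.01, 95% interval -2.46 to 2.46). Without the library labelled Trf1+/+ replicate 1 the groups of *Trpm7* were also apart, lower in Trf1flox/flox, with a log2 fold change of -0.87. *Calb1*, *Trpm6* and *Trpm7* were then the 3 members with groups apart, in a setting where 1739 of 9699 tested genes (17.9%) were apart in either direction. The same 3 genes were apart when Trf1flox/flox replicate 2 was left out as well, where 28.8% of tested genes were. The ratio of *Trpm6* to *Trpm7* was 0.0868, 0.388 and 0.362 in Trf1+/+ and 0.0882, 0 and 0.237 in Trf1flox/flox libraries, and overlapped.

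*Cnnm2*, a membrane protein needed for renal magnesium handling (chromosome 19, 46761596 to 46880192, plus strand), had 8.02, 773 and 261 normalized counts for Trf1+/+ libraries, against 591, 1.09 and 255 in the Trf1flox/flox libraries. In each group 1 library was low, with 9 reads and 1 read, and the other two lay between 255 and 773. *Cnnm2* differed by a log2 fold change of -0.84 (SE 2.67, 95% interval -7.35 to 5.67) and 1.67 without Trf1flox/flox replicate 2.

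*Casr*, the receptor that senses extracellular calcium (chromosome 16, 36493696 to 36562141, minus strand), had 0.891, 37.3 and 413 normalized counts for Trf1+/+ libraries, against 172, 87.4 and 80.6 in the Trf1flox/flox libraries. The Trf1+/+ libraries spanned from 1 read to the highest value of all 6, and the Trf1flox/flox libraries lay within that range. The mean was higher in Trf1+/+ mice, at 150.3 ± 228 against 113 ± 50.8 (SD, n = 3 each), but the log2 fold change was 1.79 in the other direction (SE 1.97, 95% interval -3.01 to 6.59). Leaving out the library labelled Trf1+/+ replicate 1 gave -0.23, and edgeR gave -0.45.

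**Figure D4:**
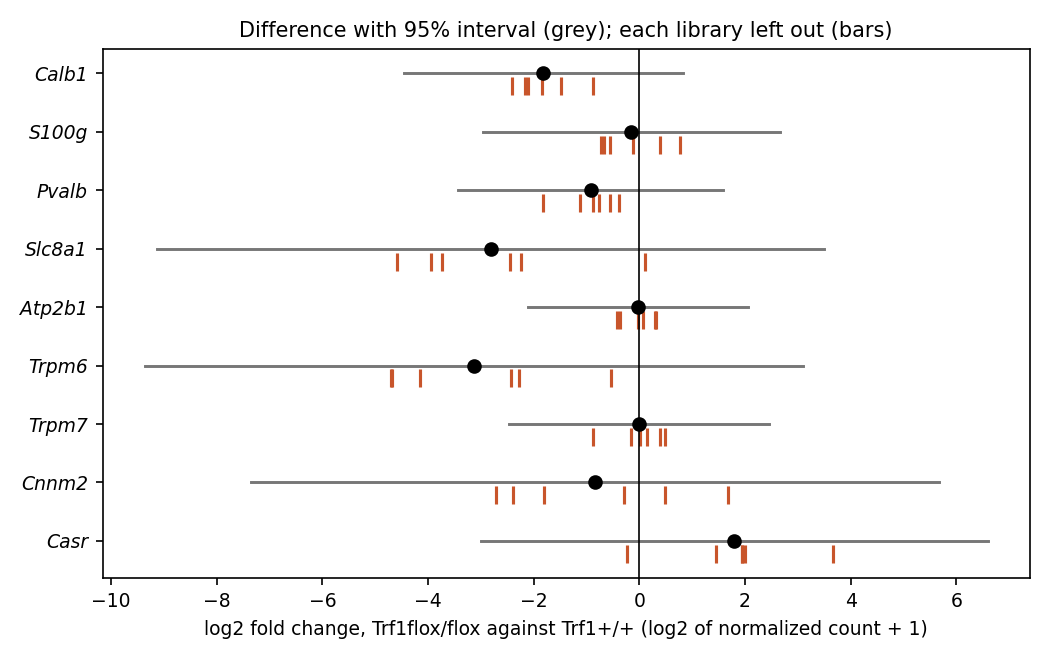
Log2 fold change of the 9 genes between Trf1flox/flox and Trf1+/+ mice (black points) with the 95% interval of limma (grey lines), and the value with each of the 6 libraries left out (orange bars), on the log2(normalized count + 1) scale. Every interval spans 0, and the orange bars stay on the same side of 0 for *Calb1*, *Pvalb* and *Trpm6*, which are at -1.82, -0.92 and -3.13.

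Across libraries, several of the genes shared their lowest values. For 6 of the 9 (*Slc8a1*, *Trpm6*, *Trpm7*, *S100g*, *Atp2b1* and *Cnnm2*), the 2 lowest values were those of Trf1+/+ replicate 1 and Trf1flox/flox replicate 2, the 2 libraries with the fewest genes above 0. Of all tested genes 14.5% had this pattern. These 2 libraries belong to different groups. *Calb1* and *Pvalb* went the other way in the first of them, which held their highest values, as it did for 27.4% of tested genes. That library also held the lowest value for 38.2% of tested genes. Its median normalized count over the listed genes was 13.4, against 119 in Trf1flox/flox replicate 2. In Trf1flox/flox replicate 2 the 9 genes summed to 5259 normalized counts, against 18054 to 37717 in the other 5 libraries, and 3 of the 9 were at or under 3 reads. What part the low number of genes above 0 has in these values was not tested.

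The promoters of these genes differ widely in sequence, and 2 of the 6 genes that shared their lowest libraries, *S100g* and *Trpm7*, are shown because they contrast in CG content and in the hexamer described next. RefSeq promoter windows on GRCm38.p6 were found for 8 of the 9 genes, and for *Calb1* none was matched. Each sequence is the 250 bases before a transcript start in RefSeq, 5′ to 3′ on the gene's strand. RefSeq starts can differ from the GENCODE gene ends given above, and *Pvalb* and *Atp2b1* each have 2 such windows. Capitals mark the hexamer AGGTCA or its reverse complement, a sequence that nuclear receptors such as the vitamin D receptor bind in paired form.
S100g (chrX:162964600-162964849, minus strand): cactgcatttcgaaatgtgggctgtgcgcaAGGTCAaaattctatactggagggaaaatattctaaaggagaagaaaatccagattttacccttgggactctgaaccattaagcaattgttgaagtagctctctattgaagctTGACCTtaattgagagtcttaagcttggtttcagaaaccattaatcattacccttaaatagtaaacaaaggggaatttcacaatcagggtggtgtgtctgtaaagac
Trpm7 (chr2:126876262-126876511, minus strand): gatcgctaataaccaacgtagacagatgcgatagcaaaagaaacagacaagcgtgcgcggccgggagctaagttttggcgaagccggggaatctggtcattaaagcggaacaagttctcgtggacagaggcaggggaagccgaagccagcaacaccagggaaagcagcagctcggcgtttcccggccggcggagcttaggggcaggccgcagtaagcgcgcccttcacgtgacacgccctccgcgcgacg
The hexamer AGGTCA, searched on both strands, is found at 2 places in the window of *S100g*. These places lie far apart and on opposite strands, and do not form a close pair. The windows of the other 7 genes hold none, while 14.0% of 32851 RefSeq promoters of that length hold the hexamer. The window of *S100g* holds 2 CG dinucleotides and that of *Trpm7* holds 26, beside a median of 6 over all promoters. The windows of *Atp2b1* hold 43 and 41, and that of *Casr* holds 1. Such matches describe the letters of the windows and not binding in these cells.

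Divided by the exonic length of each gene, the normalized counts placed the 3 calcium-binding proteins above all other members. This length joins all annotated exons of a gene, which can exceed the length of a transcript, and the order depends on it. Before the division the Trf1+/+ mean was 18423 for *Calb1* and 2747 for *S100g*. Averaged over the 6 libraries, *S100g* stood at 5770, *Pvalb* at 3535 and *Calb1* at 2602 normalized counts per kilobase of exon. These 3 had the same order in the means of each genotype. *Trpm7* followed at 161 in Trf1+/+ and 123 in Trf1flox/flox mice on the same scale, the highest of the other 6 genes in both. Below it the order of the means differed between genotypes. In Trf1+/+ mice *Trpm6* stood at 83.3, *Cnnm2* at 67.2, *Slc8a1* at 61.2, *Atp2b1* at 52.9 and *Casr* at 31.9 normalized counts per kilobase. In Trf1flox/flox mice *Cnnm2* stood at 54.7, *Atp2b1* at 53.0, *Slc8a1* at 35.2, *Casr* at 24.0 and *Trpm6* at 20.3. The lowest value of a binding protein in any library was 277 per kilobase (*Calb1* in Trf1flox/flox replicate 2), above the highest of the other 6 genes, 239 (*Trpm7* in Trf1+/+ replicate 2). Within the 3 binding proteins and within the other 6 genes, neighbours had ranges over the libraries that overlapped.

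The wider calcium and magnesium pathways were followed with 4 lists of 103 further genes, of which 77 have a row and 69 were tested. None passed an adjusted p of 0.05 in limma, edgeR or DESeq2. At an unadjusted p under 0.05 there was 1 of the 69 in limma, 2 with the trend option, and 3 each in edgeR and DESeq2. The shares of all tested genes under that p were 4.56%, 3.13%, 1.97% and 4.11% in the same order. The log2 fold change was above 0 for 36 and below 0 for 33, beside 55.9% above 0 over all tested genes. Its median was 0.01 beside 0.20 over all tested genes. The groups did not overlap for 4 of the 69, 2 higher (*Stim2* and *Zdhhc17*) and 2 lower (*Vdr* and *Pdcd6*) in Trf1flox/flox, beside 8.68% of all tested genes. Of these, *Stim2*, the 1 gene counted in limma, passed the filter on low values through its Trf1flox/flox libraries alone.

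Of 23 genes of plasma membrane calcium transport and its hormonal control, 12 were tested, with 4 higher, 8 lower and a median log2 fold change of -0.31. *Vdr*, the vitamin D receptor, which is known to act on calbindin genes, had 2325, 1739 and 1368 normalized counts for Trf1+/+ libraries, against 1061, 682 and 442 in the Trf1flox/flox libraries. All 3 Trf1flox/flox libraries lay below all 3 Trf1+/+ libraries, a pattern that 3.33% of all tested genes had. *Calb1* had it too and *S100g* did not, and a link of *Vdr* to either gene was not tested. The log2 fold change of *Vdr* was -1.37 (SE 0.79; unadjusted p = 0.133 from limma, 0.0316 with the trend option, 0.0301 from edgeR), with an adjusted p of 0.996 from limma. The gene with the highest mean count in this list was *Kl*, which encodes Klotho, a coreceptor of FGF23, at 1304, 3204 and 2888 against 1759, 2208 and 2537 normalized counts with overlapping groups.

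Of 26 genes of magnesium transport, 18 were tested, with 14 higher and 4 lower, and a median of 0.47. Over all tested genes 55.9% were above 0, with a median of 0.20. In Trf1+/+ replicate 1, the library with the fewest genes above 0, 3 of the 18 stood at 0. *Zdhhc17*, an acyltransferase also described as a magnesium transporter, had 47.2, 0 and 27.6 normalized counts for Trf1+/+ libraries, against 99.7, 243 and 102 in the Trf1flox/flox libraries. Its log2 fold change was 3.61 (SE 1.62; unadjusted p = 0.0663, adjusted p = 0.996 from limma). *Fxyd2*, the gamma subunit of the sodium pump, was the gene of this list with the highest mean count, with overlapping groups between 44918 and 115210 normalized counts.

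Of 28 genes of intracellular calcium stores and mitochondria, 19 were tested, with 10 higher, 9 lower and a median of 0.01. *Stim2*, which senses calcium in the endoplasmic reticulum, had 0.891, 0 and 4.93 normalized counts for Trf1+/+ libraries, against 284, 60.1 and 67.5 in the Trf1flox/flox libraries. At most 5 reads were counted in a Trf1+/+ library, and every Trf1flox/flox library lay above them. No Trf1+/+ library reached the 10 normalized counts of the filter, so *Stim2* was tested only because all Trf1flox/flox libraries did. Its groups were therefore bound to be apart once it passed, and its p-values are not independent of that filter. The log2 fold change of *Stim2* was 5.57 (SE 1.10; unadjusted p = 0.00216, adjusted p = 0.260 from limma), and the unadjusted p was 0.0204 with the trend option, 0.0398 in edgeR and 0.00195 in DESeq2. *Tmbim6*, a calcium leak protein of the same membrane with the highest mean count of the list, had 11045 to 14141 normalized counts in Trf1+/+ and 11185 to 16647 in Trf1flox/flox libraries.

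Of 26 EF-hand and related calcium-binding proteins, 20 were tested, with 8 higher, 12 lower and a median of -0.14. *Pdcd6*, a calcium-dependent adaptor of membrane traffic, had 3831, 1439 and 1731 normalized counts for Trf1+/+ libraries, against 1153, 895 and 1018 in the Trf1flox/flox libraries. Its groups were apart, lower in Trf1flox/flox, with a log2 fold change of -1.06 (SE 0.80; unadjusted p = 0.231 from limma, 0.0451 from edgeR, 0.0467 from DESeq2). *S100a1* had the highest mean count of this list, with a log2 fold change of 0.00 (SE 0.80) and overlapping groups.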

How the data were processed

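RNA-seq of sorted mouse kidney cells (3 Trf1+/+ and 3 Trf1flox/flox libraries) was used. The authors aligned reads with TopHat2 2.0.10, Bowtie 1.0.0 and SAMtools 0.1.19, counted them with HTSeq 0.6.1, and deposited normalized counts, a signal in which each read count is divided by the library's size factor. The study's methods name GRCm38 and the submitters' processing notes GRCm39. All values (100%) were whole multiples of 1 read within 0.001, so reads were recovered. Gene coordinates and exonic lengths were matched by symbol in GENCODE M21.

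Differences were tested with limma 3.58.1 (eBayes, no trend) on log2(normalized count + 1), with Benjamini-Hochberg adjustment over 9966 genes. The fits were also run on simulated counts set to vary less than these libraries, which does not show how the test behaves at their spread. Alternatives were edgeR 4.0.16 and DESeq2 1.42.0 on recovered reads, a pseudocount of 10, no filter, upper quartile scaling and each library left out. The labels state no separate cultures or litters, so p-values measure the spread between libraries. Named with values are the 10 members and, from each pathway list, genes with an unadjusted p under 0.05 or groups apart and the gene of highest mean. The members and lists were chosen with earlier results of these data known. Reads without molecular identifiers make the floor of 3 reads cover counting error only.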

Additional observations from a re-analysis of the deposited data

How the results depend on the processing

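Of the 9 genes, 3 (*Calb1*, *Trpm6* and *Pvalb*) kept their direction in all 13 alternative settings, 2 of which were added after the data were seen: limma with a trend in its variance, and leaving out Trf1+/+ replicate 1 and Trf1flox/flox replicate 2 together. No paired analysis was possible because the labels number no replicates. Upper quartile scaling moved the median log2 fold change of all tested genes from 0.20 to 0.44, gave 0.28 for *Trpm7*, 0.13 for *S100g* and 0.26 for *Atp2b1*, and raised the members above 0 from 1 to 4. The log2 fold change of *S100g* was 0.0404 in edgeR, 0.0283 in DESeq2 and 0.20 without both libraries, that of *Casr* was -0.45, -0.41 and -0.0837, and that of *Atp2b1* was 0.00835 in DESeq2. DESeq2 also called 58 genes at an adjusted p under 0.05, put 1 member under an unadjusted p of 0.05, as the trend option did with 1, and placed 2 members above 0. With 1 library left out at a time, the log2 fold change ranged from -0.87 to 0.49 for *Trpm7*, from -0.72 to 0.77 for *S100g*, from -0.43 to 0.32 for *Atp2b1*, from -0.23 to 3.66 for *Casr*, from -2.72 to 1.67 for *Cnnm2* from -4.60 to 0.10 for *Slc8a1*, from -1.82 to -0.39 for *Pvalb*, from -2.41 to -0.88 for *Calb1* and from -4.70 to -0.53 for *Trpm6*. The members above 0 then ranged from 0 to 6, those with groups apart from 1 to 3, and the pathway genes under an unadjusted p of 0.05 from 0 (without Trf1flox/flox replicate 2 or 3) to 4 (without Trf1+/+ replicate 3), with 3 and 2 without Trf1+/+ replicates 1 and 2. Without both libraries, 3 members had groups apart and 0 pathway genes passed. Pathway genes that passed numbered 2 with a pseudocount of 10, 2 without the filter, 2 after upper quartile scaling, 2 with the trend option, 3 in edgeR and 3 in DESeq2. The share of all tested genes under that p was 5.25%, 4.63%, 4.41%, 3.13%, 1.97% and 4.11% in these settings in turn, 2.22% without both libraries, and 2.2% to 8.82% with 1 library left out, highest without Trf1+/+ replicate 3. The cause of these changes was not tested. Libraries of 500 amplified cells, with 3 in a group, limit the precision, and most members had standard errors above 1 log2 unit.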
